A study of Mus musculus with 13 samples.

Results

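The genes described here are 32 genes of protein folding, quality control and stress signalling in the endoplasmic reticulum (ER), chosen by name, out of 25655 genes in the tables. By role they are 10 chaperones and co-chaperones of the ER lumen, 6 lectin chaperones and disulfide enzymes, 7 genes of ER-associated degradation, 7 sensors and effectors of the unfolded protein response and 2 genes of entry into the ER. RNA sequencing was done on 13 primary cultures of dermal fibroblasts from the skin of neonatal mice, none of them treated. WT cultures came from wild-type mice, and G234D cultures from Fbn1 G234D/G234D mice, homozygous for that allele of the gene of the secreted microfibril protein fibrillin-1. Set 1 held 4 WT cultures (W1 to W4) and 4 G234D cultures (M1 to M4), and set 2 added 2 WT cultures (W5, W6) and 3 G234D cultures (M5 to M7). The series counts 1 mouse for each culture, the mutation is in all cells of the animal, and neither the age in days, nor the strain, nor the passage number is stated in the labels.

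Secreted and membrane proteins are threaded into the ER, where chaperones hold them while they fold, lectin chaperones read their sugar chains and disulfide isomerases join their cysteines. Proteins that fail to fold are sent back to the cytosol and destroyed, which is called ER-associated degradation. A shortage of folding capacity switches on the unfolded protein response through 3 membrane sensors: IRE1 (Ern1), which splices the Xbp1 transcript, PERK (Eif2ak3), which slows translation and raises ATF4, and ATF6, which is cut in the Golgi to release a transcription factor. Dermal fibroblasts secrete large amounts of collagen and fibrillin and so keep this machinery running at a high level. Splicing of Xbp1, phosphorylation of the kinases and cutting of ATF6 are not visible in gene-level values, so the data bear on transcript levels alone.

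Fibroblast markers fixed as a list (Col1a1, Col1a2, Col3a1, Pdgfra, Pdgfrb, Dcn, Lum, Thy1, Vim and Fap) all reached 1 TPM in every culture, 10 of 10; TPM give a transcript's length-corrected share of all transcripts in a culture. Between 11741 and 12042 genes reached 1 TPM in a culture, and mitochondrial genes held 3.89% to 5.67% of the TPM. The values are TPM, so the read depth is unknown and no counting interval can be given. Among the cultures of set 1, M1 and M2 stood highest for markers of muscle, macrophages and glia: the 14 skeletal muscle genes summed to 342 TPM in M1 against 66.8 in M4, the 13 macrophage and leukocyte genes to 227 TPM in M2 against 37.3 in W3, and the 9 Schwann cell and melanocyte genes to 129.8 TPM in M2 against 21.8 in W1. The 8 endothelial genes summed to at most 11.6 TPM and the 10 keratinocyte genes to at most 10.7 TPM, with Tie1 and Cldn5 at 0 in all WT cultures of set 1 and Krt1 and Krt15 at 0 in its G234D cultures. The 10 fibroblast genes summed to the least in M1 (23240 TPM) and M2 (25544), against 25795 to 29321 TPM in the other cultures of set 1. Pdgfra was at 37.8 and 48.7 TPM in M1 and M2 against 83.3 to 143 in the others. Fap went the other way and was highest in M1 and M2. In a mixed culture, fewer cells of a type and less RNA per cell cannot be told apart. The titles of set 1 carry numbers that fall into a lower block (H6755 for W1, H6989 for M1, H6991 for M2 and H6993 for W2) and a higher block (H7112 for M3, H7113 for M4, H7114 for W3 and H7115 for W4), called earlier and later here. No label says what the numbers mark, and that of W1 lies far below the others of its block.

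Some promoters of these genes carry short motifs through which the response is known to act. The ER stress response element (ERSE), bound by NF-Y together with ATF6 or spliced XBP1, reads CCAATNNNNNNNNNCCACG, and its shorter relative ERSE-II reads ATTGGNCCACG. Both were searched on both strands in the 300 bases from 250 before to 50 after each transcription start, taken from RefSeq on build GRCm38.p6, for the 28 of 32 genes with a sequence there (29 promoters, since Derl2 has 2 starts). Atf6, Derl1, Hyou1 and Manf had no entry. ERSE was found in 9 of the 29 promoters, those of Hspa5, Hsp90b1, Calr, Canx, Pdia6, Dnajc3, Creld2, Syvn1 and Derl3, against 39 of 32851 promoters of all genes (0.119%). ERSE-II was found in 2, those of Herpud1 and Dnajb11, against 12 of all promoters (0.0365%). ERSE was worked out on promoters of ER chaperone genes, so its presence in them is no independent finding. The matches are shown because the differences described further on are set beside them, each 5′ to 3′ on the strand of the gene with 15 bases on either side and the match in capitals; a match on the opposite strand begins with CGTGG and ends with ATTGG.
Hspa5 (chr2:34772010-34772058, plus strand): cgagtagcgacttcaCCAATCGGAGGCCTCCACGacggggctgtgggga
Hsp90b1 (chr10:86705623-86705671, minus strand, upstream match): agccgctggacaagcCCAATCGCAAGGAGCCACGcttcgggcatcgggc
Hsp90b1 (chr10:86705518-86705566, minus strand, downstream match): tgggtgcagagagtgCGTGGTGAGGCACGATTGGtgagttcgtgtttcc
Calr (chr8:84847060-84847108, minus strand): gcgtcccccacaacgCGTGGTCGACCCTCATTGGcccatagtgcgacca
Canx (chr11:50325785-50325833, minus strand): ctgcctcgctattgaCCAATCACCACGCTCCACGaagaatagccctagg
Pdia6 (chr12:17266476-17266524, plus strand): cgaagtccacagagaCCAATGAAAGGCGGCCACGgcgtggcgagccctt
Dnajc3 (chr14:118937812-118937860, plus strand): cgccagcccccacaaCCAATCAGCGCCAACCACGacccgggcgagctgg
Creld2 (chr15:88819505-88819553, plus strand): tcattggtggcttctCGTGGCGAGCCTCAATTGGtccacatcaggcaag
Syvn1 (chr19:6046517-6046565, plus strand): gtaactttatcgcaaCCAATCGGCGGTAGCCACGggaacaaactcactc
Derl3 (chr10:75893227-75893275, plus strand): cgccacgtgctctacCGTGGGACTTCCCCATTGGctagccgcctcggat
Herpud1 (chr8:94386362-94386402, plus strand, ERSE-II): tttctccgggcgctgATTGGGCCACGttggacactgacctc
Dnajb11 (chr16:22857837-22857877, plus strand, ERSE-II): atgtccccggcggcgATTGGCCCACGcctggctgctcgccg

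The ERSE matches began between 212 bases before the start in Hsp90b1, which had a second match 107 bases before it, and 44 bases before the start in Syvn1. Of the 10 ERSE matches, 6 lay on the strand of the gene and 4 on the opposite strand. The ERSE-II match of Herpud1 began 52 bases before the start, and that of Dnajb11 lay 7 bases past it. The 11 letters of ERSE-II share the CCACG block with ERSE. Its other block is CCAAT turned to the opposite strand, ATTGG, and the spacing differs. No promoter of these genes held both motifs. The core of the unfolded protein response element, TGACGTGG, was in 0 of the 29 promoters against 222 of all (0.676%), and a core of the amino acid response element bound by ATF4, TGATGNAAT, in 0 of 29 against 317 of all (0.965%), which says only that these letters are not in these windows. The whole windows of Hsp90b1, with its pair of ERSE matches, and of Trib3, which had none of the 4 motifs and whose level differed by block and genotype, are printed for comparison.
Hsp90b1 (chr10:86705395-86705694, minus strand): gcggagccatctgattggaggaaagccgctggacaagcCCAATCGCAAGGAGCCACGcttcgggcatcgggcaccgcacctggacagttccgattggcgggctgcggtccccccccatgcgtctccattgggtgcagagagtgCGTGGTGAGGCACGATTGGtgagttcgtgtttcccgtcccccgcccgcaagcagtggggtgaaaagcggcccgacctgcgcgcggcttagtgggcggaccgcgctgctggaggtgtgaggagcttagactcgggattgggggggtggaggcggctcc
Trib3 (chr2:152344011-152344310, minus strand): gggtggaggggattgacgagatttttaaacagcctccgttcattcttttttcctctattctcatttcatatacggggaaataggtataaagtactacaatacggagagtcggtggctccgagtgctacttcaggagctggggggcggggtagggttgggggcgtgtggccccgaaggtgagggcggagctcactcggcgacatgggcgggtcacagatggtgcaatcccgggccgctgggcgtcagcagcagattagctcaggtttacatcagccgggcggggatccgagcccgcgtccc

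The ER genes spanned a wide range of levels in these fibroblasts. Their TPM, which are per length and so comparable between genes, summed to between 8407 (W5) and 9902 (W1), or 0.841% to 0.99% of all TPM. Calr, the calcium-binding lectin chaperone calreticulin, stood first at 1596 ± 164 TPM (SD, n = 13), followed by Hsp90b1, the chaperone GRP94, at 1290.2 ± 127. Pdia3, the isomerase that works with calreticulin and calnexin, was at 948 ± 62.3 and Hspa5, the central chaperone BiP, at 817 ± 35.6. Calr and Hsp90b1 overlapped in their ranges over cultures, as did Pdia3 and Hspa5, while Hsp90b1 and Pdia3 did not. Next came Atf4, a transcription factor of the PERK branch, at 622, the isomerase gene Pdia6 at 590.4, Canx (calnexin) at 561, the isomerase gene Pdia4 at 390.2, the translocon gene Sec61b at 329 and Trib3, the pseudokinase that ATF4 induces and that dampens it, at 240.5 TPM. The sensors stood near the lower end of the order, with Atf6 at 25.7, Eif2ak3 at 19.8 and Ern1 at 8.15 TPM. Derl3, a member of the derlin family of ER-associated degradation found mostly in secretory glands, was listed at 0.486 TPM or less in every culture and at 0 in 1 or more, and it alone failed the filter of 1 TPM. Of the 31 pairs of neighbours in this order, 21 overlapped in their ranges.

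**Figure D1:**
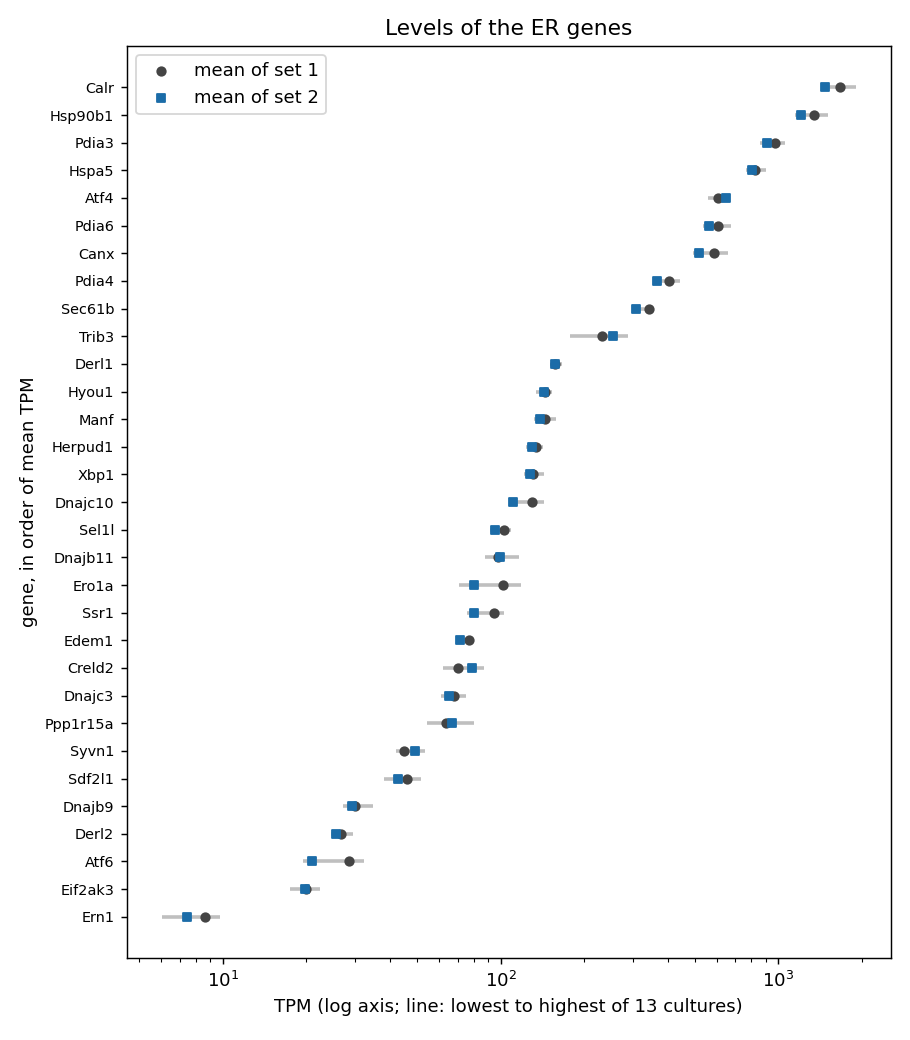
Level of 31 ER genes in TPM on a log axis, ordered by their mean over 13 cultures (Derl3 is left out); the line runs from the lowest to the highest culture, the circle is the mean of set 1 and the square that of set 2. Levels run from 8.15 TPM for Ern1 to 1596 TPM for Calr, and the lines are short against the spacing of the whole order.

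Single genes varied little between cultures. The highest culture exceeded the lowest by 1.08-fold for Derl1, a derlin of the degradation channel, and by 1.67-fold for Ero1a (called Ero1l in older lists), the oxidase that feeds disulfides to the isomerases, with the other 29 expressed genes between these. The median coefficient of variation was 4.07% in WT and 7.1% in G234D cultures of set 1, and 2.55% and 3.52% in those of set 2. The largest, 26.1%, was that of Trib3 in G234D cultures of set 1. M1 was the highest culture of set 1 for 13 of the 31 genes, while it was highest for 20.2% of all genes tested, and M3 was the lowest for 8 genes against 11.1% of all genes.

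**Figure D2:**
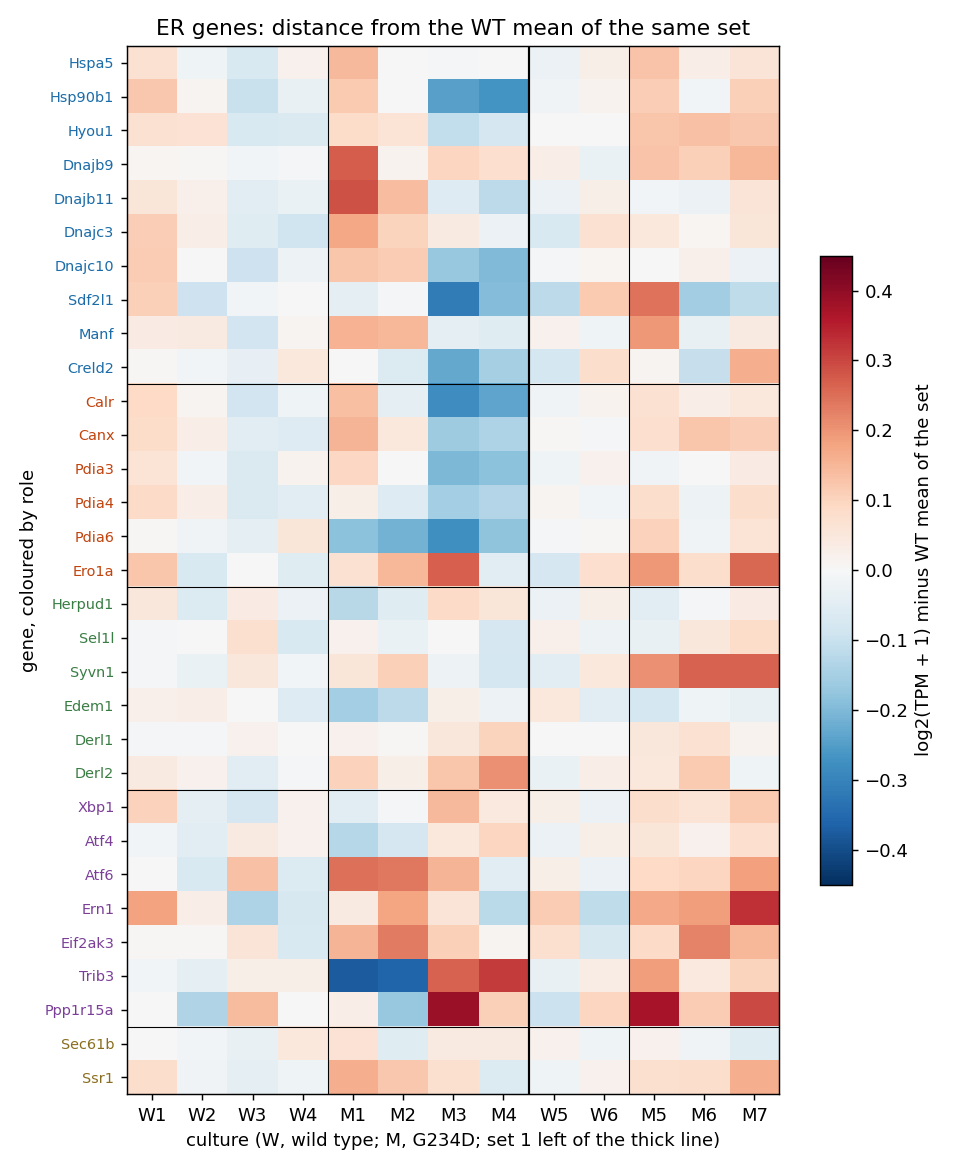
Distance of each culture from the WT mean of its set, in log2(TPM + 1), for 31 ER genes (rows, by role) in 13 cultures (columns). Trib3 is low in M1 and M2 and high in M3 and M4, Pdia6 is low in all G234D cultures of set 1, and Hsp90b1, Dnajc10, Calr and Pdia3 are low in M3 and M4.

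Genotype was compared over both sets first, with the set as a covariate. All differences are on the log2(TPM + 1) scale, which understates those of low genes, and a gene is called at a Benjamini-Hochberg adjusted p under 0.05 over all genes tested by limma. None of the ER genes differed by that test: 0 of 31 were called, against 0 of 11942 genes (0%), and the lowest adjusted p among the ER genes was 0.742. The differences were small and leaned to the G234D side, with 20 of 31 above 0, against 56.6% of all genes, and a median of 0.04 against 0.01 for all genes. After median-of-ratios scaling 18 of 31 lay above 0, with a median of 0.02 against −0.004 for all genes. For 30 of the 31 genes the 95% interval stayed inside 1.25-fold either way, against 81.1% of all genes tested. For all 31 it stayed inside 1.5-fold, against 94.6% of all genes. At unadjusted p under 0.05, 7 ER genes were higher, against 4.22% of all genes, and 1 was lower, against 2.22%.

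Among the sensors and effectors, 7 of 7 genes had differences above 0, with a median of 0.11; Atf4 turned below 0 after median-of-ratios scaling. Eif2ak3, the PERK gene, stood at 19.0, 19.0, 19.7 and 18.0 TPM in W1 to W4, at 21.2, 22.4, 20.4 and 19.1 in M1 to M4, at 19.5 and 17.5 in W5 and W6 and at 19.6, 21.7 and 20.6 in M5 to M7. M4 lay within the range of the WT cultures of set 1, and in set 2 the 3 G234D cultures lay above both WT cultures. Its log2 difference was 0.14 (SE 0.046, adjusted p = 0.742), and in 7 of 7 G234D cultures it exceeded the mean of the WT cultures grown in that set. Atf6 was at 27.0, 25.7, 29.7 and 25.8 TPM in W1 to W4 and at 32.2, 31.98, 30.2 and 26.02 in M1 to M4, then at 20.2 and 19.5 in W5 and W6 and 21.2, 21.3 and 22.7 in M5 to M7. Its difference was 0.14 (SE 0.053, adjusted p = 0.742), and 6 of 7 G234D cultures exceeded the WT mean. The differences of Ppp1r15a, whose product GADD34 lifts the block of translation set by PERK, Ern1, Xbp1, Trib3 and Atf4 were 0.15, 0.11, 0.05, 0.02 and 0.01, with adjusted p values from 0.865 to 0.992.

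Among the chaperones, 6 of 10 differences lay above 0. Dnajb9, a co-chaperone that holds IRE1 in check, was at 28.8, 28.7, 28.3 and 28.5 TPM in W1 to W4 and at 34.7, 28.9, 30.7 and 30.2 in M1 to M4, and at 28.2 and 27.1 in W5 and W6 and 30.3, 29.9 and 30.8 in M5 to M7. The groups did not overlap in either set, and the difference was 0.12 (SE 0.04, adjusted p = 0.742). Hspa5 stood at 815 ± 32.9 TPM in W1 to W4 and 835 ± 43.6 in M1 to M4, and at 779.9 ± 21.4 and 820.4 ± 28.9 in W5 and W6 and in M5 to M7 (SD, n = 4, 4, 2 and 3). Its difference was 0.05, with a 95% interval of −0.03 to 0.13. Hsp90b1 and Hyou1, a chaperone that acts as exchange factor for BiP, were at −0.04 and 0.04. Sdf2l1, a partner of ER J proteins, at −0.09, and Creld2, a disulfide protein induced by ER stress, at −0.06 were the lowest of the group.

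Among the lectin chaperones and disulfide enzymes, 2 of 6 differences lay above 0. Pdia6, the isomerase that also attenuates IRE1 signalling, was the 1 ER gene lower at unadjusted p under 0.05, with a difference of −0.11 (SE 0.047, adjusted p = 0.742). Ero1a was the highest of the group at 0.14 (SE 0.055, adjusted p = 0.742), with 6 of 7 G234D cultures above their WT mean. Among the degradation genes, 3 of 6 lay above 0: Derl2, a derlin, at 0.09, Syvn1, the ubiquitin ligase HRD1, at 0.10 and Derl1 at 0.05, of which Derl1 exceeded its WT mean in 7 of 7 G234D cultures. Edem1, which marks glycoproteins for degradation, was at −0.06, Herpud1, a scaffold of the HRD1 complex, at −0.01 and Sel1l, the partner of HRD1, at −0.0008. Of the genes of entry into the ER, Ssr1, a subunit of the translocon-associated protein complex, was at 0.09 and Sec61b at 0.01. Genes with an ERSE match had a median difference of −0.01 (8 tested) and those with neither motif 0.02 (17 tested). In set 1 alone these medians were −0.06 and 0.02, with 5 of 8 and 8 of 17 genes below 0. In set 2 alone they were 0.06 and 0.05, with 8 of 8 and 13 of 17 above 0, against 62.4% of all genes. After median-of-ratios scaling 7 of the 8 ERSE genes lay above 0, without Creld2, and after quantile normalization 8.

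**Figure D3:**
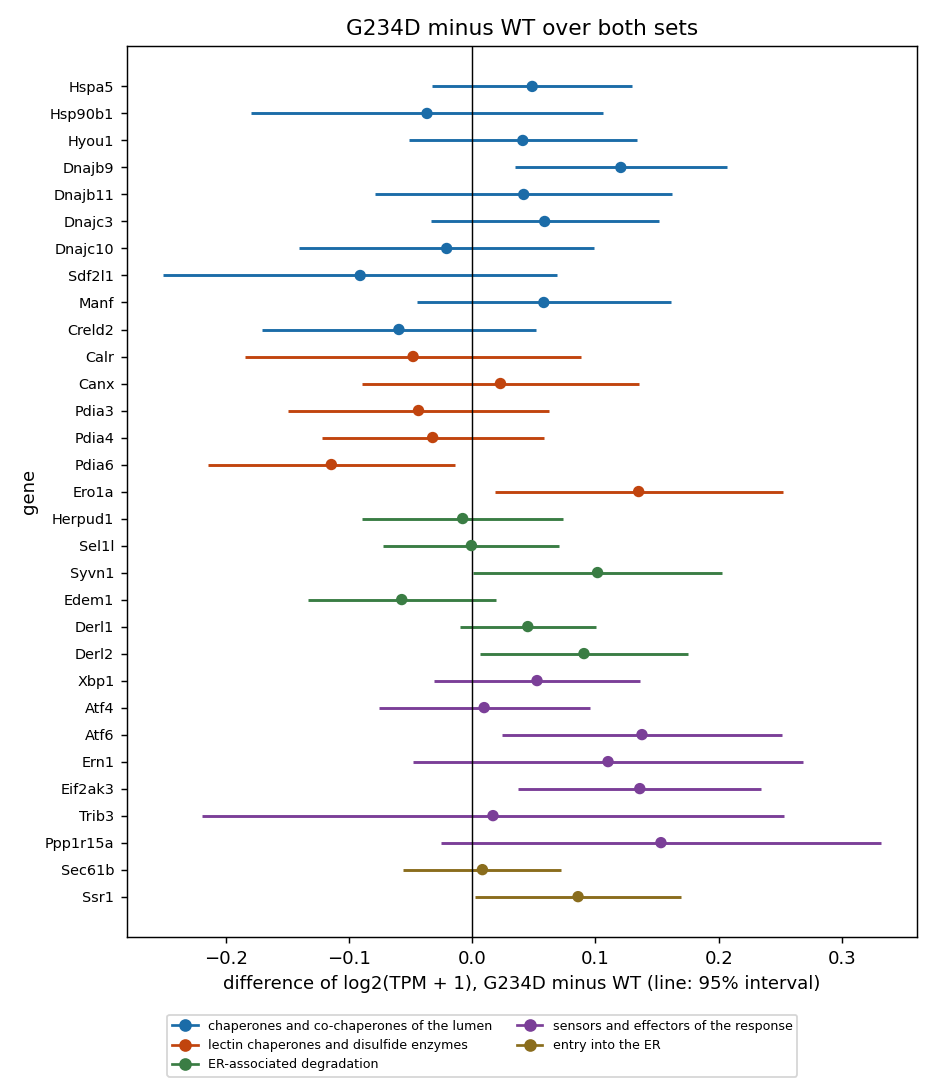
Difference of log2(TPM + 1), G234D minus WT over both sets, for 31 ER genes, with the 95% interval from limma as a line and the role as the colour. All 7 sensors and effectors lie right of 0 (6 after median-of-ratios scaling), 4 of 6 lectin chaperones and disulfide enzymes lie left of it, and the points run from −0.11 for Pdia6 to 0.15 for Ppp1r15a.

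Within set 1, Pdia6 stood apart from the other ER genes. It was at 652, 643, 633 and 675 TPM in W1 to W4 and at 572, 562, 537 and 574 in M1 to M4. Every G234D culture lay below every WT culture, and the difference was −0.21 (SE 0.045, adjusted p = 0.487), so it was not called, as were 0 of 31 ER genes and 0 of 11905 genes (0%). In set 2 Pdia6 was at 550.5 and 556 TPM in W5 and W6 and at 595, 548 and 577 in M5 to M7, and the groups overlapped. The difference between the sets in its genotype difference was 0.26 (SE 0.068, adjusted p = 0.63), and the interaction was called for 0 of 31 ER genes and 0 of 11942 genes (0%). Dnajb9 and Pdia6 were the 2 of 31 ER genes whose genotypes did not overlap in set 1, against 4.15% of all genes. The difference of Pdia6 in set 1 ran from −0.24 to −0.19 over the alternatives tried.

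Within set 2, 26 of 31 ER genes had differences above 0, against 62.4% of all genes, and 0 were called, against 1 of 12060 genes (0.00829%). The count above 0 was 22 after median-of-ratios scaling and 25 after quantile normalization. These scalings moved the median of all genes from 0.03 to −0.003 and 0.002. The 3 G234D cultures lay above both WT cultures without overlap for 15 of the 31 genes, against 16.6% of all genes, and below both for 0, against 7.02%. These 15 were Hspa5, Hyou1, Dnajb9, Calr, Canx, Ero1a, Syvn1, Derl1, Xbp1, Atf6, Ern1, Eif2ak3, Trib3, Ppp1r15a and Ssr1. This count is given for TPM without either scaling, and some of the gaps were narrow. Hspa5 was at 796.6 TPM in M6 against 795.1 in W6, and Trib3 at 250.6 against 249.1. The gaps of Hyou1 and Syvn1 were wider. Hyou1 was at 136.1 and 136.5 TPM in W5 and W6 and at 148.5, 149.5 and 148.5 in M5 to M7. These values are tight within each genotype, and the difference was 0.13 (SE 0.048, adjusted p = 0.749). Syvn1 was at 42.8 and 45.7 TPM in the WT and at 51.2, 53.3 and 53.4 in the G234D cultures, a difference of 0.25 (SE 0.062, adjusted p = 0.617). In set 1 the same gene was at 44.6 ± 1.13 and 45.1 ± 2.67 TPM, and its interaction with the set was 0.23 (adjusted p = 0.85). Ppp1r15a was at 55.6 and 63.9 TPM in W5 and W6 and at 77.4, 64.6 and 73.4 in M5 to M7, a difference of 0.26 (SE 0.088, adjusted p = 0.741). With 2 WT cultures, the spread of the WT group rests on a pair of values, and macrophage and leukocyte genes summed to 124 to 175 TPM in the G234D against 111 to 113 TPM in the WT cultures of set 2; their part in these differences was not tested.

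**Figure D4:**
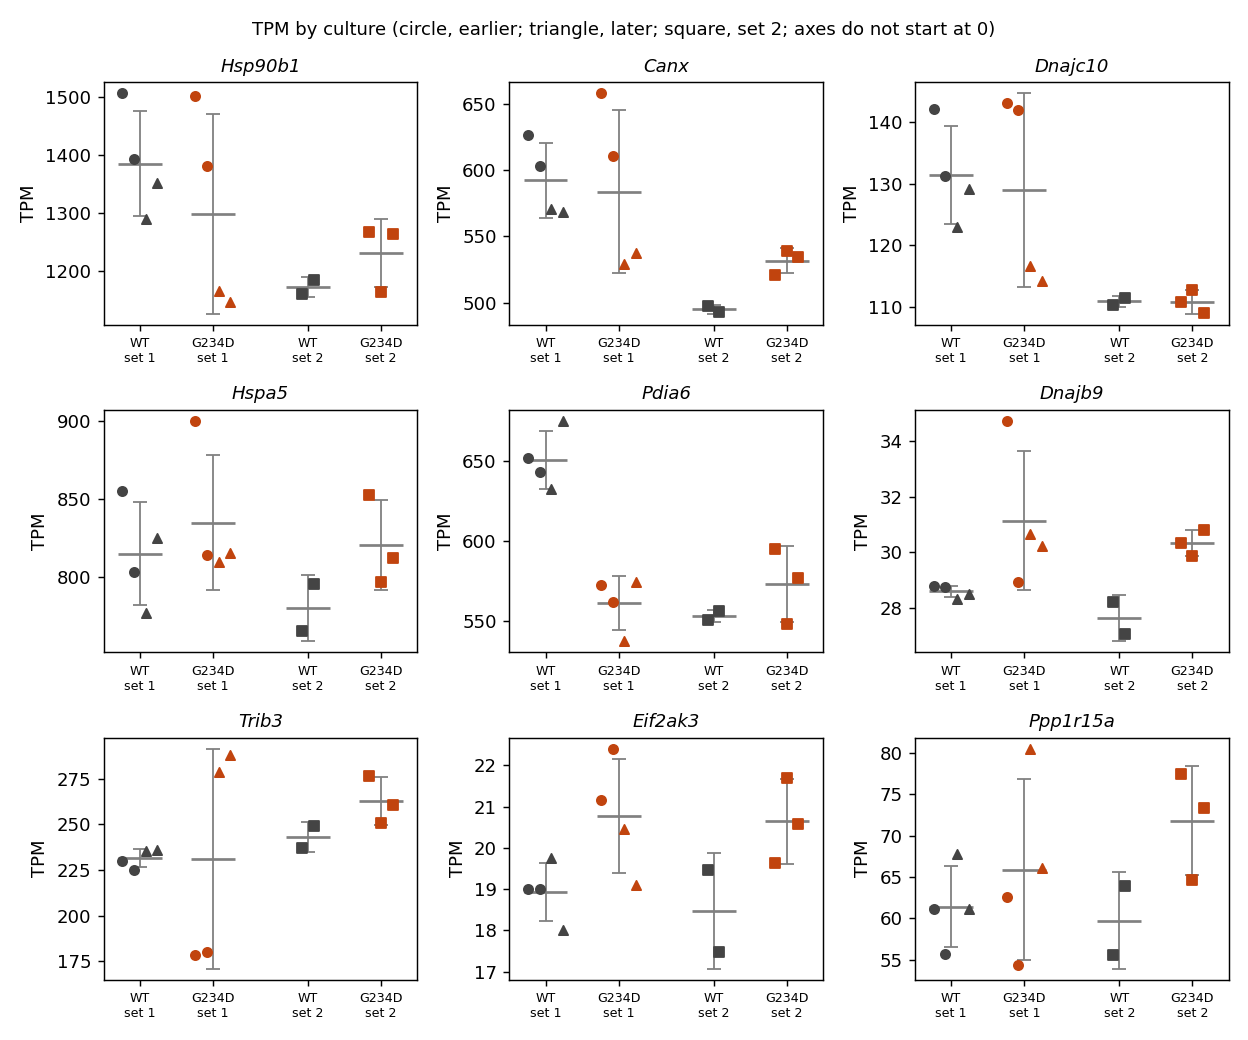
TPM of 9 ER genes in each culture by set and genotype (circle, earlier title number; triangle, later; square, set 2), with the group mean and SD (n = 4, 4, 2 and 3). Hsp90b1, Canx and Dnajc10 are lower in the later than in the earlier cultures of set 1, Pdia6 is lower in G234D cultures of set 1, and Trib3 lies at 178 to 288 TPM in G234D against 225 to 236 TPM in WT cultures of set 1.

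The blocks of title numbers in set 1 were compared next. Later were compared with earlier cultures with genotype as a covariate, and 4 ER genes were called lower in the later cultures: Hsp90b1, Canx, Dnajc10 and Hyou1. Of all genes, 4.35% were called lower (518 of 11905) and 2.79% higher (332), and 0 ER genes were called higher. All 10 chaperones and co-chaperones and all 6 lectin chaperones and disulfide enzymes had differences below 0, except that Pdia6 and Ero1a turned above 0 under both other scalings, with medians of −0.14 and −0.13, where the median of all genes was −0.02. The degradation genes had 4 of 6 above 0 and a median of 0.03. At unadjusted p under 0.05, 12 ER genes were lower, against 16.7% of all genes, and 3 were higher, against 9.9%. All 4 calls were lost (adjusted p values of 0.0652 to 0.0982) when TPM were rescaled by median-of-ratios, which moved the median of all genes from −0.02 to 0.005 and the called genes from 332 of 850 higher to 419 of 822 higher, and under several other alternatives given with the limits.

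Hsp90b1 was at 1506 and 1393 TPM in W1 and W2 and at 1500.2 and 1379.9 in M1 and M2, against 1290.2 and 1351 in W3 and W4 and 1167 and 1146 in M3 and M4. The later cultures lay below all earlier ones, and the difference was −0.22 (SE 0.056, adjusted p = 0.0443). Canx was at 627 and 604 TPM in W1 and W2 and 658 and 611 in M1 and M2, against 571 and 568 in W3 and W4 and 529 and 537 in M3 and M4, a difference of −0.18 (SE 0.046, adjusted p = 0.0466). Dnajc10, a disulfide reductase and co-chaperone that helps clear misfolded proteins, was at 142 and 131 TPM in W1 and W2 and 143 and 142 in M1 and M2, against 123 and 129 in W3 and W4 and 117 and 114 in M3 and M4. Its difference was −0.21 (SE 0.05, adjusted p = 0.0411). Hyou1 was at 151.6, 151.1, 153.1 and 151.0 TPM in W1, W2, M1 and M2 and at 137.7, 138.0, 133.7 and 136.9 in W3, W4, M3 and M4. Its coefficient of variation was 0.654% in the earlier and 1.44% in the later block, and it differed by −0.15 (SE 0.034, adjusted p = 0.0348).

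In all, 6 ER genes were lower in all later than in all earlier cultures, against 9.77% of all genes, and these were the 4 called genes with Dnajb11, a BiP co-chaperone, and Manf, a secreted ER stress protein. Another 2 were higher without overlap, Atf4 and Trib3, against 5.7% of all genes. Calr was at 1842, 1744, 1901 and 1676 TPM in W1, W2, M1 and M2 and at 1631, 1708, 1424 and 1467 in W3, W4, M3 and M4, with a difference of −0.20 (SE 0.061, adjusted p = 0.0719). Hspa5 differed by −0.06 (SE 0.047, adjusted p = 0.434) and Pdia6 by −0.01, neither of them called. Atf4 differed by 0.12 and Ppp1r15a by 0.23, with adjusted p values of 0.112 and 0.108. The 8 genes with an ERSE match that were tested all lay below 0, except Pdia6 under both other scalings, with a median of −0.11, and the 17 with neither motif had 7 above and 10 below 0, with a median of −0.03. The ERSE genes called were Hsp90b1 and Canx, and Dnajc10, with neither motif in its window, was called as well.

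The blocks were also compared within each genotype, with 2 cultures against 2. Within the WT cultures alone, 0 ER genes were called, against 1.59% of all genes, and Hsp90b1, Canx and Hyou1 differed by −0.13, −0.11 and −0.13. Within the G234D cultures alone, 8 were called, against 16.7% of all genes: Hsp90b1 (−0.31), Canx (−0.25), Dnajc10 (−0.30), Calr (−0.30), Pdia3 (−0.24), Dnajb11 (−0.30) and Manf (−0.20) were lower in the later cultures, and Trib3 (0.66, SE 0.057, adjusted p = 0.000932) was higher. Without M1 and M2, the cultures of set 1 with the most muscle, macrophage and glial marker RNA, 0 ER genes and 13 of all genes were called for the later against the earlier cultures. As the G234D cultures left, M3 and M4, are both later, this fit again takes the difference from W1 to W4 alone. M3 and M4 add only to the estimate of the spread, so the fit is no separate check on M1 and M2. Hsp90b1 then differed by −0.13 (adjusted p = 0.456), Hyou1 by −0.13 (adjusted p = 0.382) and Canx by −0.11 (adjusted p = 0.465), 9 of 10 chaperones lay below 0, and so did 5 of 8 genes with an ERSE match. Whether the other cells of M1 and M2 take part in the difference was not tested.

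**Figure D5:**
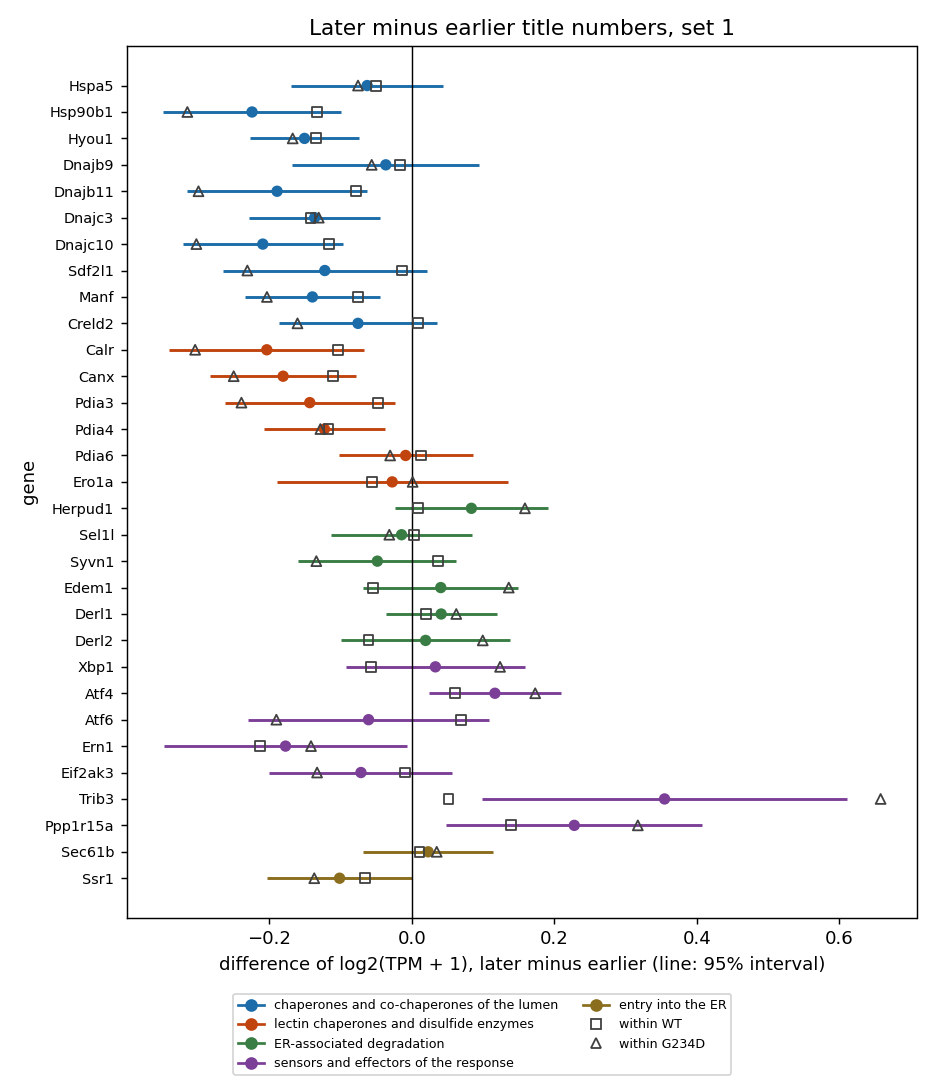
Difference of log2(TPM + 1), later minus earlier title numbers in set 1, for 31 ER genes with the 95% interval from limma; open squares give the WT cultures alone and open triangles the G234D cultures alone. All 16 chaperones, lectin chaperones and disulfide enzymes lie left of 0 (14 under either other scaling). The intervals, which are not adjusted for the number of genes, lie wholly left of 0 for 12 genes and wholly right for 3. Hsp90b1, Canx, Dnajc10 and Hyou1, the genes called after adjustment, are among the 12. The Trib3 triangle lies at 0.66 against a square at 0.05.

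Trib3 differed with block and genotype together. It was at 229.8 and 225 TPM in W1 and W2 and at 236 and 236 in W3 and W4. In the G234D cultures it was at 178 and 180 TPM in M1 and M2 and at 279 and 288 in M3 and M4, so the earlier pair lay below every WT culture and the later pair above. The interaction of block and genotype, a test added after these values were seen, was 0.61 (SE 0.064, adjusted p = 0.00297), with 334 of 11905 genes called (2.81%) and Trib3 the 1 ER gene among them. It was called under all 6 processing alternatives and without each culture in turn, with adjusted p values up to 0.0235. In set 2 Trib3 was at 237 and 249 TPM in W5 and W6 and at 277, 251 and 261 in M5 to M7. Averaged over set 1, the genotypes stood at 232 ± 5.17 and 231 ± 60.3 TPM (SD, n = 4 each).

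Within the earlier cultures, 3 of 31 ER genes were called between the genotypes, against 8.08% of all genes (976 of 12077). These were Trib3 (−0.34, SE 0.044, adjusted p = 0.00472), Pdia6 (−0.19, SE 0.042, adjusted p = 0.0332) and Atf6 (0.28, SE 0.062, adjusted p = 0.0358). Within the later cultures 0 were called, against 0.00841% of all genes, where Trib3 differed by 0.26 (adjusted p = 0.256), Pdia6 by −0.24 and Atf6 by 0.02. With 2 cultures in each arm, these fits borrow their spread from other genes, and the earlier G234D cultures are M1 and M2.

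Other genes of the same pathways, 127 outside the 32, were counted by list. Over both sets 0 were called and 97 lay above 0, against 56.6% of all genes. After median-of-ratios scaling 83 lay above 0, where the median of all genes was −0.004. Without that scaling, 29 of 33 other folding factors, 27 of 30 genes of the translocon and signal processing and 15 of 21 other degradation factors lay above 0. So did 14 of 17 other sensors and regulators and 12 of 26 PERK and ATF4 targets. Stc2, a secreted glycoprotein that PERK signalling induces, had the largest of the named differences at 0.42 (adjusted p = 0.742). Between the later and earlier cultures 6 of the 127 were called, against 7.14% of all genes (850 of 11905). Cebpb, a transcription factor of stress and differentiation, rose by 0.34 (SE 0.048, adjusted p = 0.0123). Srprb, a subunit of the signal recognition particle receptor (−0.16), Edem3, a mannosidase of the degradation pathway (−0.25), and Fkbp10, a prolyl isomerase that folds collagen (−0.16), fell, with adjusted p values of 0.035 to 0.0448.

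The interaction of block and genotype was called for 3 of the 127, all PERK and ATF4 targets. Chac1, which breaks down glutathione, was at 46.7 and 47.9 TPM in M1 and M2, 63.4 and 71.2 in M3 and M4 and 58.9 to 64.6 in WT cultures of set 1, with an interaction of 0.45 (SE 0.099, adjusted p = 0.0453). Pck2, the mitochondrial form of a gluconeogenic enzyme, was at 138 and 152 TPM in M1 and M2 and 188 and 184 in M3 and M4, with an interaction of 0.38 (SE 0.084, adjusted p = 0.0472). Both were lower in M1 and M2 than in M3 and M4, as Trib3 was. Atf3, a stress transcription factor, went the other way, at 14.95 and 16.4 TPM in M1 and M2 and 7.81 and 10.2 in M3 and M4 (−0.85, SE 0.18, adjusted p = 0.0445). Of the 26 PERK and ATF4 targets 3 were thus called, beside 2.81% of all genes.

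The sets were deposited as separate tables, so levels are given side by side with no test. In WT cultures the mean of set 2 was 73.4% to 107% of that of set 1, with a median of 94.3%. Of the ER genes, 27 of 31 were lower in set 2. The matching median and share of all genes are not given, so these values do not set the ER genes apart from a general shift. Both WT cultures of set 2 lay below all 4 of set 1 for 17 ER genes, against 29.9% of all genes, and above them for 1, Trib3, against 22.3%. The largest gaps were those of Atf6 (27.0 against 19.8 TPM), Ero1a (97.97 against 74.6 TPM) and Ern1 (8.49 against 6.64 TPM), while Syvn1, Derl1 and Derl2 stood at 99.2%, 99.2% and 98.4% of their level in set 1. In all 13 cultures together, 5 ER genes (Dnajc10, Ero1a, Atf6, Sec61b and Ssr1) were lower in every culture of set 2 than in every culture of set 1, against 10.4% of all genes, and 0 were higher, against 6.82%. Fbn1 itself (ENSMUSG00000027204, chr2:125300594-125507993, minus strand, mm10) was at 491 ± 42.8 TPM in W1 to W4 and 542 ± 50.2 TPM in M1 to M4. In set 2 it was at 411 and 400 TPM in W5 and W6 and at 433, 433 and 489 in M5 to M7. Its genotype difference over both sets was 0.15 (SE 0.058, adjusted p = 0.742 by limma), so it was not called. A missense allele is not bound to change the amount of transcript, so the level is no check of the labels.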

How the data were processed

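RNA of 13 cultures was measured by sequencing; per the labels, total RNA was column-purified and made into directional libraries. The authors deposited TPM, as the file headers name them, which sum to 1000000 over the same 25655 genes in every table. The genome build is mm10, per the submitters' processing notes; no aligner, counter or annotation is named in the labels or headers. TPM carry no read totals, so depth is unknown and precision rests on the spread between cultures.

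Log2(TPM + 1) was fitted with limma 3.58.1 in R 4.3.3 (mean-variance trend, robust empirical Bayes, Benjamini-Hochberg over all genes kept). The filter asked for 1 TPM in 6 or more cultures for fits of all 13, in 4 or more for set 1, and in 2 or more for set 2 or subsets of set 1. The design allowed for counts and gave this test for other units. Alternatives were a pseudocount of 0.1, no filter, a filter at 10 TPM, median-of-ratios and quantile scaling, ordinary empirical Bayes, a replicate block, the title-number blocks as a term, leaving out each culture in turn, and leaving out M1 and M2.

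Replicate numbers come from the genotype labels. Deviations of same-numbered WT and G234D cultures from their group means correlated at 0.327, 0.198, 0.259 and 0.279 in set 1, each above 0.1, and at −0.148 and 0.00963 in set 2; no label says that a number marks a shared litter or day, and W1 with M2 and W3 with M4 gave 0.406 and 0.34.

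The members and lists were chosen with earlier results of these data known, as was the split by title number. Named genes are the 32 members, Fbn1, and in each comparison up to 4 pathway genes of the smallest p in each direction. A gene that this rule names is not reported here. Ero1l was matched by identifier to Ero1a. The set 1 block by genotype interaction was added after the data were examined.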

Additional observations from a re-analysis of the deposited data

Results flagged for a closer look

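Hspa5 was set apart in M1: among the 4 G234D cultures of set 1 it stood at 900.0 TPM there and between 809 and 815 TPM in M2, M3 and M4, a gap of 0.933 of the range of the group. Of 64 groups examined in this way 1 stood out, where chance alone gives about 1 in 20. M1 was also the culture with the highest sum of skeletal muscle markers, 342 TPM, whose part in this value was not tested.

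The difference between later and earlier title numbers itself differed between the genotypes of set 1 for Trib3 (0.61), Chac1 (0.45), Pck2 (0.38) and Atf3 (−0.85), each by the interaction term of limma at an adjusted p under 0.05. The interaction was fitted after the values of Trib3 were seen. M1 and M2, which set the earlier level of the G234D cultures, were also the cultures of set 1 with the most muscle, macrophage and glial marker RNA, and the part of those cells was not tested.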

How the results depend on the processing

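The count of ER genes called between genotypes was 0 over both sets, in set 2 and for the set by genotype interaction under every alternative run; in set 1 it was 0 except within the earlier title numbers (3). With the replicate block, set 1 had 1 gene called and set 2 had 21, and 0 ER genes were called in either; the numbers did not pair the cultures in set 2, where the block result is a shared number only. Of all genes, set 1 had 1 called with the title-number blocks as a term, 976 within the earlier and 1 within the later title numbers, 23 without M1 and M2, and 0 to 2 without 1 culture. Set 2 had 0 with no filter, 0 with a filter at 10 TPM and 0 to 14 without 1 culture. The interaction of set and genotype had 29 without M1 and M2 and 0 to 1 without 1 culture.

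The calls between later and earlier title numbers changed under several alternatives. From 850 genes and 4 ER genes they went to 269 and 0 with no filter, to 822 and 0 with median-of-ratios scaling, to 745 and 2 (Calr and Hsp90b1) with quantile normalization, to 13 and 0 without M1 and M2, to 190 and 0 within WT and to 2027 and 8 within G234D cultures. Without 1 culture they ran from 36 to 855 genes and from 0 to 3 ER genes: 0 ER genes without W1 (276 genes), W3 (493), M1 (92), M2 (36), M3 (361) or M4 (289). The cause was not tested. Without M1 and M2 that comparison rests on W1 to W4 alone, since the G234D cultures left are both later. The replicate numbers are nested in the title-number blocks, so no paired fit of that comparison could be made. The interaction of block and genotype, with its alternatives added after the data were examined, went from 334 genes to 139 with no filter and to 46 to 690 without 1 culture, with Trib3 called in each; a lone culture in an arm is then assumed to vary like the others. No ER gene past the threshold in a main fit reversed its difference under an alternative. The genotype difference of Trib3 in set 1, called within the earlier cultures, had the opposite sign within the later ones. Depth is unknown, and low genes such as Ern1 and Derl3 are the least certain.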
